A study of Mus musculus with 6 samples.

Results

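The markers of the contractile and supporting cells of the vessel wall were described as a set of 10 genes, Acta2, Tagln, Myh11, Cnn1, Rgs5, Pdgfrb, Abcc9, Kcnj8, Cspg4 and Mcam, taken by name from the 30702 genes that the arrays measured with a single gene symbol. Each of the 10 was read by 1 probe set. The RNA came from whole inguinal subcutaneous white fat (WAT) of male C57BL/6 mice aged 2 months, with 1 array per mouse. The KO group held 3 mice of genotype TFG f/f; Adipoq-ERT2Cre, in which tamoxifen activates a Cre recombinase driven by the promoter of the adiponectin gene, a gene of fat cells. The WT group held 3 mice of genotype TFG f/f, which carry the same floxed alleles but no Cre, so the effects of the Cre transgene and of the deletion cannot be told apart. Both groups were given tamoxifen for 5 days, and RNA was prepared from the fat 2 weeks afterwards. The Cre is meant to act in fat cells, so the 10 genes were read in a tissue whose intended target cell is another one. Where the Cre acted was not measured here, so whether cells of the vessel wall were spared is not known.

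Smooth muscle cells wrap arteries and veins, and pericytes sit on capillaries within the basement membrane they share with the endothelium. Together they are called mural cells. Smooth muscle contracts through actin and myosin, and its contractile genes are switched on by serum response factor (SRF) with its coactivator myocardin at DNA elements called CArG boxes. Pericytes are recruited by platelet-derived growth factor B from endothelial cells, which binds the receptor encoded by Pdgfrb, and they set capillary tone through potassium channels and G protein signals. In white fat, mural cells also stand beside the progenitors of fat cells, and some of their markers are found on those progenitors too.

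The stretches of 250 bases before the start site are shown for Acta2, Rgs5 and Abcc9, the 3 genes called higher on the values as deposited. That of Kcnj8, the neighbouring gene and channel partner of Abcc9, which was not called, is shown too. The stretches come from RefSeq on build GRCm38.p6, which held a window for 7 of the 10 genes, all but Tagln, Myh11 and Pdgfrb. They are written 5′ to 3′ on the strand of the gene, at chr19:34255374-34255623 (minus strand) for Acta2, chr1:169655251-169655500 (plus strand) for Rgs5, chr6:142702275-142702524 (minus strand) for Abcc9 and chr6:142571615-142571864 (minus strand) for Kcnj8. Capitals mark matches on either strand to the CArG box, to CCAAT (an NF-Y element), to GGGCGG (an Sp1 element), to TATAAA (the TATA box) or to CATTCC (an element of TEAD factors), and no matches overlapped in these stretches.
Acta2: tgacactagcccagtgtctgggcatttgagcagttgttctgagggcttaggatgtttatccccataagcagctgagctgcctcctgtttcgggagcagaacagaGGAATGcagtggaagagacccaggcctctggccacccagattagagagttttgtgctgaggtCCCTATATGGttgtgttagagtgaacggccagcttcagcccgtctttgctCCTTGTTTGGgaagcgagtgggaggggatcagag
Rgs5: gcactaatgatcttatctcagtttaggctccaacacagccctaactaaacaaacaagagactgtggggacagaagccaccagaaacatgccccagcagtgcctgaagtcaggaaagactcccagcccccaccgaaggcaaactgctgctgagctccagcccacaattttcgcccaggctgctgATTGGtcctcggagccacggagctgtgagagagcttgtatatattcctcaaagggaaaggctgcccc
Abcc9: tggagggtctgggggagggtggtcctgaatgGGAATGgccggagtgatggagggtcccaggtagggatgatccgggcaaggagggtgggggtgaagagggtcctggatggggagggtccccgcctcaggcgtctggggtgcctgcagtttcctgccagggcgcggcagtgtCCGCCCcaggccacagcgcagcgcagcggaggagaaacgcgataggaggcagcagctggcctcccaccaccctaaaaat
Kcnj8: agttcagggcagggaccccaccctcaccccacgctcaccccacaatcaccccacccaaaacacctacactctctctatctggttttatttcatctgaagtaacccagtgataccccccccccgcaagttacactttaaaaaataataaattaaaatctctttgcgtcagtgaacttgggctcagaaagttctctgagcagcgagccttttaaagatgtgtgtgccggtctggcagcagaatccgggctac

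The stretch of Acta2 holds 2 matches to a CArG box in which at most 1 of the 6 inner letters is not A or T. They lie 84 to 75 and 34 to 25 bases before the annotated start. Such a match was found in 8.59% of 32851 promoter windows of the same length, and a CArG box with only A and T inside, found in 1.47%, is absent from the Acta2 stretch. The stretches of Acta2 and Abcc9 each hold a CATTCC match (12.6% of windows). The stretch of Rgs5 holds a CCAAT match (33.8%) and that of Abcc9 a GGGCGG match (32.7%). The Kcnj8 stretch matched none of the motifs, and TATAAA (12.4%) matched in none of the 4. These matches describe letters in the windows and do not show that a factor binds.

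Values are log2 signals per probe set as deposited, with n = 3 arrays per group. Array medians lay between 6.96 and 7.02 on the WT arrays and between 6.47 and 6.76 on the KO arrays, and the median difference over all 65956 probe sets was -0.37. KO 2 stood apart, correlating with the other KO arrays at 0.96 and 0.965 across probe sets, where those correlated at 0.986. The targeted gene did not check the labels: Tfg read 7.94 ± 0.03 on the WT side and 8.08 ± 0.12 (SD) on the KO side (limma adjusted p = 0.345), and which exons its probe set reads is not given. The groups are therefore those of the arrays labelled WT and KO. Detection calls were not used here, so whether a signal exceeded background was not tested. The group means of the 10 genes on WT arrays ran from 6.38 to 8.23. Olfactory receptor genes, which fat is not known to use, had a middle range of 6.76 to 8.44 there, although probe sets differ in brightness and their levels cannot be ranked.

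Of the 10 genes, 3 were called higher on the KO arrays and 0 lower, on the values as deposited. Rgs5 rose 3.82-fold, Acta2 2.53-fold and Abcc9 1.99-fold, by limma at an adjusted p under 0.05 over all probe sets, but only Rgs5 kept its call when arrays were centred on housekeeping genes, and Abcc9 then stood at -0.09 on the log2 scale. These 3 of 10 genes compare with 20.9% of all probe sets called in either direction, 5.32% called higher and 15.6% called lower, and with 10.7% of 19232 protein-coding genes called higher. The median difference of the 10 genes was 0.43, beside -0.37 for all probe sets and -0.18 for protein-coding genes, and it turned to -0.65 on the housekeeping scale, where the median of all probe sets was -1.45. All 3 KO arrays lay above all 3 WT arrays in 6 of the 10 genes (11.1% of all probe sets) and below them in 0 (44.9% of all probe sets). In whole fat, fewer cells of a type and less RNA per cell cannot be told apart, and the same holds for more.

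Calls of single genes depended on single arrays. Without WT 1, WT 2, WT 3 or KO 3, 0 of the 10 genes and 0 probe sets passed limma's test on the deposited scale, so no list had a call there either, with 21579 to 28697 probe sets at an unadjusted p under 0.05. The differences kept their sign in each of the 6 fits that left out 1 array, at 1.77 to 2.22 for Rgs5, 1.08 to 1.62 for Acta2, 0.75 to 1.18 for Abcc9 and 0.92 to 1.56 for Mcam. Without KO 1, Acta2 and Rgs5 were called, and without KO 2, Rgs5, Abcc9 and Mcam. Of all 65956 probe sets, 3469 were called higher and 10697 lower without KO 1. Without KO 2, 3046 were called higher and 6921 lower.

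**Figure D1:**
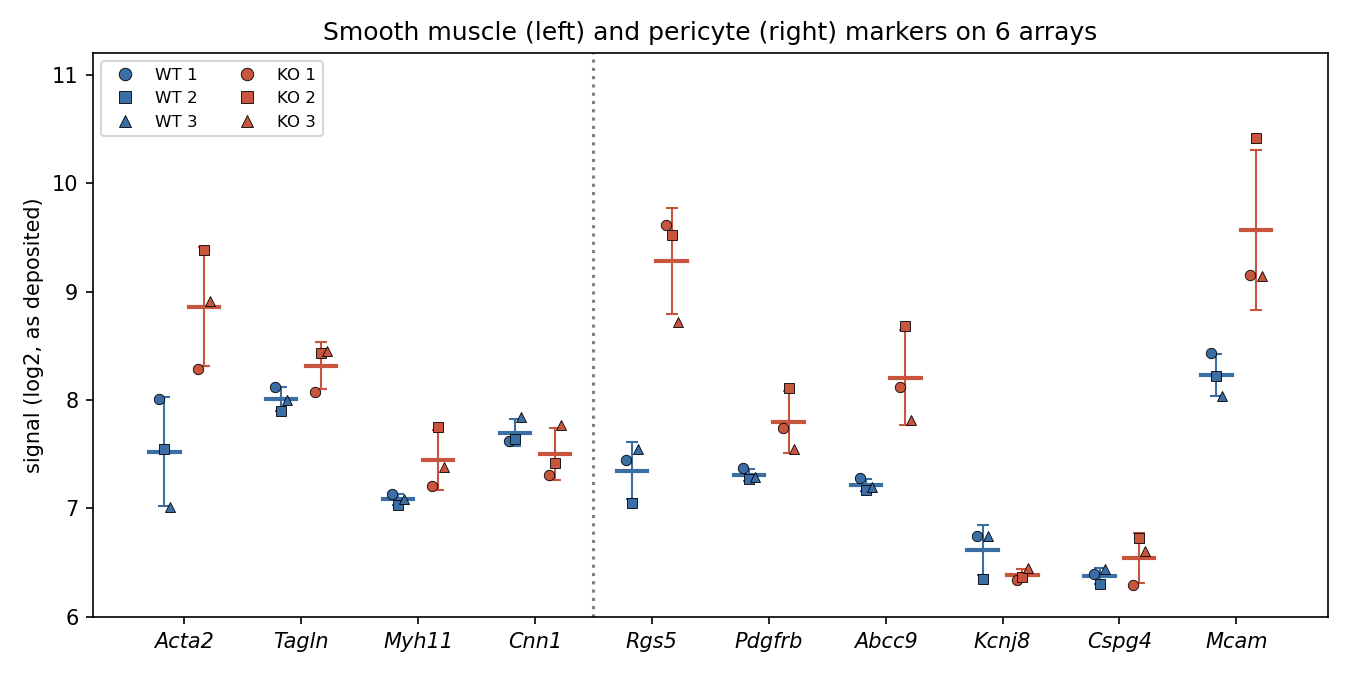
Log2 signal (vertical axis) of the 10 marker genes on the 3 WT (blue) and 3 KO (red) arrays, with the group mean (thick bar) and SD (thin bar); the dotted line divides contractile from pericyte markers. KO arrays lie above all WT arrays for Acta2, Myh11, Rgs5, Pdgfrb, Abcc9 and Mcam, while the groups overlap for Tagln, Cnn1, Kcnj8 and Cspg4.

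Among the contractile genes, Acta2, which encodes smooth muscle alpha actin, was the member that passed. The log2 signal of Acta2 was 8.01, 7.55 and 7.01 in the WT mice, against 8.29, 9.38 and 8.91 in the KO mice. The groups did not overlap, but the gap between WT 1 and KO 1 was small beside the spread within each group. The difference was 1.34 ± 0.36 (SE; 95% interval 0.46 to 2.21), with a limma adjusted p of 0.0486, just under the threshold. Without KO 2 it was 1.08 (limma adjusted p = 0.0969).

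Myh11 encodes the smooth muscle myosin heavy chain, the marker most restricted to smooth muscle. It read 7.13, 7.03 and 7.09 in the WT mice, against 7.21, 7.75 and 7.38 in the KO mice. The KO values all lay above the WT values, yet KO 1 exceeded the highest WT array only slightly. The difference was 0.36 ± 0.16 (SE; 95% interval -0.03 to 0.76) and was not called (limma adjusted p = 0.125).

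Tagln, the gene of the actin-binding protein transgelin (SM22 alpha), read 8.12, 7.90 and 8.0 in the WT mice, against 8.07, 8.43 and 8.45 in the KO mice. KO 1 fell within the WT range, so the groups overlapped. Its difference was 0.31 ± 0.15 (SE; 95% interval -0.05 to 0.67; limma adjusted p = 0.143).

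Cnn1 encodes calponin 1, which binds actin and restrains myosin. Its values were 7.62, 7.64 and 7.84 in the WT mice, against 7.31, 7.42 and 7.77 in the KO mice. KO 3 lay within the WT range and the other KO arrays below it. The difference was -0.20 ± 0.16 (SE; 95% interval -0.59 to 0.19; limma adjusted p = 0.331).

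The 4 contractile genes thus had differences of unequal size. The change of Acta2 exceeded that of Myh11 by 0.97 ± 0.33, that of Tagln by 1.03 ± 0.34 and that of Cnn1 by 1.54 ± 0.47 (SE from the spread over arrays). A shift of a whole array cancels in these contrasts. They were picked with the values in view and carry no test.

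Rgs5 encodes a regulator of G protein signalling that shortens the contractile response to vasoconstrictors and is a widely used pericyte marker. It had the largest difference of the 10 genes. The log2 signal of Rgs5 was 7.45, 7.05 and 7.55 in the WT mice, against 9.61, 9.52 and 8.72 in the KO mice. The lowest KO array stood well above the highest WT array. The difference was 1.93 ± 0.28 (SE; 95% interval 1.26 to 2.61; limma adjusted p = 0.0354), above 98.9% of the differences of all probe sets. Without KO 2 it was 1.82 (limma adjusted p = 0.0319).

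Mcam encodes CD146, an adhesion molecule of pericytes, smooth muscle and also endothelial cells. It read 8.43, 8.22 and 8.04 in the WT mice, against 9.15, 10.42 and 9.14 in the KO mice. All KO arrays lay above the WT arrays, with KO 2 far above the other KO arrays. The difference of 1.34 ± 0.37 (SE; 95% interval 0.44 to 2.24) missed the threshold (limma adjusted p = 0.0503), and without KO 2 it was smaller, at 0.92, but passed (limma adjusted p = 0.0272).

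Pdgfrb, the receptor by which mural cells are recruited to vessels, read 7.37, 7.27 and 7.29 in the WT mice, against 7.74, 8.11 and 7.55 in the KO mice. The groups did not overlap. The difference of 0.49 ± 0.17 (SE; 95% interval 0.08 to 0.90) did not pass after adjustment (limma adjusted p = 0.0717).

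Cspg4 encodes the NG2 proteoglycan, which marks pericytes and, in the brain, oligodendrocyte precursors. It read 6.40, 6.30 and 6.44 in the WT mice, against 6.29, 6.73 and 6.61 in the KO mice. KO 1 was the lowest of all 6 arrays, so the groups overlapped. The difference was 0.16 ± 0.15 (SE; 95% interval -0.20 to 0.52; limma adjusted p = 0.388). The change of Rgs5 exceeded that of Cspg4 by 1.77 ± 0.37 (SE from the spread over arrays). This contrast was picked with the values in view and carries no test.

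Abcc9 and Kcnj8 encode the partners of 1 channel. Kcnj8 gives the pore (Kir6.1) and Abcc9 the sulfonylurea receptor (SUR2) of the ATP-sensitive potassium channel of vascular muscle and pericytes, which relaxes vessels when it opens. The genes are direct neighbours among the protein-coding genes of their chromosome in the RefSeq annotation. Abcc9 read 7.28, 7.17 and 7.20 in the WT mice, against 8.12, 8.68 and 7.82 in the KO mice. WT values were tightly grouped, and every KO array lay above them. Among the KO arrays Abcc9 was highest on KO 2 and lowest on KO 3, as was the mean of the skeletal muscle markers given below. A part of skeletal muscle in the signal of Abcc9 was not tested. The difference was 0.99 ± 0.23 (SE; 95% interval 0.44 to 1.54; limma adjusted p = 0.0402), and 0.75 without KO 2 (limma adjusted p = 0.0305).

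Kcnj8 did not share this difference. It read 6.75, 6.35 and 6.75 in the WT mice, against 6.34, 6.37 and 6.45 in the KO mice, so the KO arrays lay within the WT range or, for KO 1, just below it. The WT mean of 6.62 lay below the middle range of olfactory receptor genes on WT arrays, 6.76 to 8.44. Kcnj8 was not tested for signal over background, nor for whether its probe set could show a change. Its difference was -0.23 ± 0.15 (SE; 95% interval -0.59 to 0.13; limma adjusted p = 0.241). The change of Abcc9 exceeded that of Kcnj8 by 1.22 ± 0.29 (SE from the spread over arrays), and the per-array gap between the genes was wider on every KO array than on every WT array. The genes of the pancreatic channel subunits, Abcc8 (SUR1) and Kcnj11 (Kir6.2), were looked at after their values had been seen. Their differences were -0.36 (limma adjusted p = 0.0851) and -0.29 (limma adjusted p = 0.0951), beside a median of -0.37 for all probe sets. After centring on the array median Abcc8 stood at -0.03 and Kcnj11 at 0.04.

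**Figure D2:**
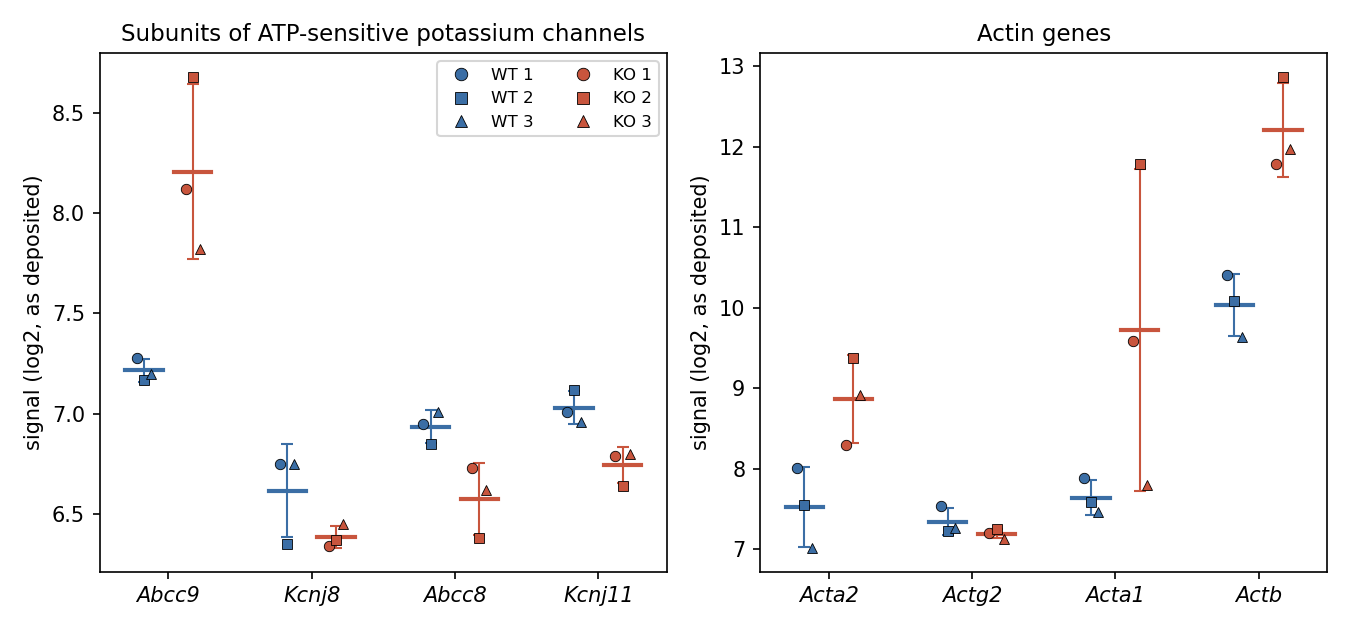
Log2 signal (vertical axes, different ranges) on the 3 WT (blue) and 3 KO (red) arrays of genes for subunits of ATP-sensitive potassium channels (left) and of actin genes (right), with group mean and SD. On the left only Abcc9 lies higher on the KO arrays as deposited, a difference that turns to -0.09 on the housekeeping scale; on the right Acta1 is high on KO 1 and KO 2 but reads 7.80 on KO 3, where Acta2 reads 8.91.

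Actin genes resemble each other closely, and which parts of the transcripts the probe sets read is not given, so the reading of Acta2 is uncertain in that respect. Acta1, the skeletal muscle actin gene, read 9.59 and 11.79 on KO 1 and KO 2 but 7.80 on KO 3, within the WT range of 7.46 to 7.88. Acta2 read 8.91 on that array, above all WT arrays. Actg2, the enteric smooth muscle actin gene, read 7.34 ± 0.17 on WT and 7.19 ± 0.06 (SD) on KO arrays and overlapped. Actb, the cytoplasmic actin gene, rose from 10.04 ± 0.39 to 12.21 ± 0.58 (SD; limma adjusted p = 0.0354), and its part in the signal of Acta2 was not tested.

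Skeletal muscle markers moved with KO 1 and KO 2. The mean of 14 such genes was 7.07 to 7.08 on the WT arrays, 8.69 on KO 1, 10.18 on KO 2 and 6.94 on KO 3. Of the 14, 0 passed limma's test, beside 20.9% of all probe sets. With KO 3 alone against the 3 WT arrays, an alternative chosen after seeing the data that assumes the lone array varies like the WT arrays, Acta2 differed by 1.39, Rgs5 by 1.37, Mcam by 0.91 and Abcc9 by 0.60. No probe set passed there (limma, smallest adjusted p = 0.0853, with 19275 probe sets at an unadjusted p under 0.05). On KO 3 every marker but Cnn1 and Kcnj8 was above all WT arrays. The share of all probe sets with KO 3 above all WT arrays was not counted. The markers therefore have no background to compare with there.

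The KO arrays spread more than the WT arrays in 9 of the 10 genes, Kcnj8 being the exception. KO 2 was the highest KO array for 6 genes (Acta2, Myh11, Pdgfrb, Abcc9, Cspg4 and Mcam), KO 3 for Tagln, Cnn1 and Kcnj8, and KO 1 for Rgs5. The most like profiles over the 6 arrays, by the root mean square distance between values centred on each gene's mean, were Piezo1 (distance 0.05), Mprip (0.05) and Snx14 (0.06) for Abcc9. For Acta2 they were Smim19 (0.09), Cstb (0.13) and Ccn1 (0.15). For Rgs5 they were the pseudogene Gm6788 (0.23), Fabp5 (0.25) and the pseudogene Gm9762 (0.25), so no gene came as close to Rgs5 as to the other members called.

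Which of the 10 genes differed depended on the scale of the arrays. The median difference of all probe sets was -0.37 as deposited, -0.04 after centring on the array median or quantile normalization, and -1.45 after centring on housekeeping genes. As deposited, 3 were called higher and 0 lower. After centring each array on its median, Acta2, Rgs5, Abcc9 and Mcam were called higher and 0 lower, and the differences of Cnn1 and Kcnj8 turned positive, at 0.13 and 0.10. After quantile normalization, Rgs5 and Abcc9 were called higher. Of all 65956 probe sets, median centring called 5146 higher and 3259 lower, and quantile normalization 4032 higher and 2212 lower. After centring each array on the mean of 11 housekeeping genes, whose KO mean exceeded the WT mean by 1.08, Rgs5 was called higher, at 0.85 (limma adjusted p = 0.0362), and Tagln, Myh11, Cnn1, Kcnj8 and Cspg4 were called lower. On that scale Acta2 and Mcam stood at 0.26, Abcc9 at -0.09 and Pdgfrb at -0.59 without passing, and 59145 of all probe sets were called lower against 867 higher. Rgs5 was the member called higher on each of these 4 scales.

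**Figure D3:**
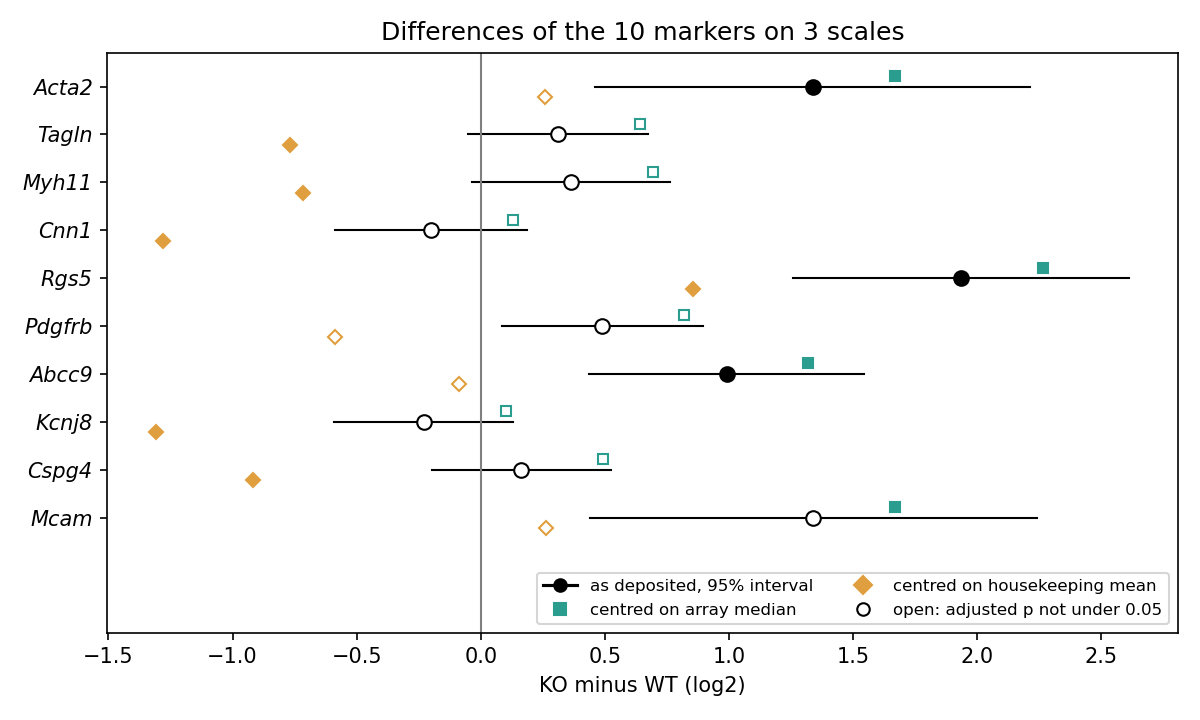
KO minus WT difference (log2, horizontal axis) of the 10 genes on 3 scales: as deposited with the 95% interval (black), after centring on the array median (green squares) and after centring on the mean of the housekeeping genes (orange diamonds). Filled symbols passed limma's test at an adjusted p under 0.05; Rgs5 is filled on all 3, and Tagln, Myh11, Cnn1, Kcnj8 and Cspg4 are filled only on the housekeeping scale, where they lie below 0.

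Other genes of smooth muscle structure gave a mixed picture. Of 27 measured genes of contraction and its cytoskeleton 8 were called higher and 0 lower, with a median difference of 0.45. Beside them, 10.7% of protein-coding genes and 5.32% of all probe sets were called higher. On the housekeeping scale 12 of the 27 were called lower and 2 higher. Cav1, whose protein shapes the membrane caveolae of muscle, endothelium and fat cells, rose by 3.12 ± 0.43 (SE; limma adjusted p = 0.0354). Ppp1r12a, a subunit of the myosin phosphatase that relaxes smooth muscle, rose by 1.98 ± 0.39 (SE). Cnn3 and Tpm4, calponin and tropomyosin genes that many cell types use, rose by 0.93 and 1.03, but stood at -0.15 and -0.05 on the housekeeping scale. All 4 of these genes are also used outside smooth muscle. The other genes called higher were Vcl, Flna, Myl9 and Smtn, at 1.85, 1.43, 0.72 and 0.59. On the housekeeping scale these stood at 0.77, 0.35, -0.36 and -0.49. Of the 27 differences as deposited, 21 were positive and 6 negative.

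The regulators of the contractile program were called in both directions on the values as deposited. Of 17 measured genes of SRF, myocardin and transforming growth factor signals 3 were called higher and 1 lower, with a median difference of -0.06. Beside them, 10.7% of protein-coding genes were called higher and 10.2% lower, and of all probe sets 5.32% and 15.6%. After centring on the array median 3 were called higher and 0 lower (median 0.27), and on the housekeeping scale 1 higher and 14 lower (median -1.14). Tead1, a factor that binds CATTCC elements, rose by 1.97 ± 0.38, the receptor gene Tgfbr2 by 1.46 ± 0.35 and Klf4, which represses contractile genes, by 0.57 ± 0.15 (SE; -0.51 on the housekeeping scale). Foxs1, a mural forkhead gene, was called lower at -0.55 ± 0.14 (SE), and the call was lost after centring on the array median (-0.22, limma adjusted p = 0.327). Srf and Myocd themselves differed by 0.37 and -0.36 without passing (limma adjusted p = 0.167 and 0.0733).

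Signals between endothelium and mural cells were higher in part. Pdgfb, the endothelial ligand of the receptor encoded by Pdgfrb, rose from 5.82 ± 0.13 to 6.63 ± 0.20 (SD), by 0.81 ± 0.15 (SE; limma adjusted p = 0.0356), but stood at -0.27 on the housekeeping scale. The other PDGF genes measured, Pdgfa, Pdgfc and Pdgfd, did not pass. Of 17 Notch, angiopoietin, sphingosine and endothelin genes 6 were called higher and 0 lower, with a median difference of 0.08. Beside them, 10.7% of protein-coding genes and 5.32% of all probe sets were called higher. On the housekeeping scale 1 of the 17 was called higher and 11 lower. Ednrb, S1pr1, Tek and Tie1, receptors that endothelial cells carry, rose by 1.73, 2.09, 1.37 and 0.49, the last turning to -0.59 on the housekeeping scale. Notch1 and the Notch ligand gene Jag1 were also called higher, at 0.58 and 0.70, but stood at -0.50 and -0.38 on the housekeeping scale. Notch3, the Notch receptor of mural cells, differed by 0.08 ± 0.11 (SE; limma adjusted p = 0.583). Dll4, Heyl, Hey1, Hey2 and Hes1 were not called either.

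A wider list of pericyte and mural markers held few calls, at a share higher near that of other genes. Of 24 measured genes 2 were called higher and 0 lower, beside 10.7% of protein-coding genes called higher and 5.32% of all probe sets, with a median difference of 0.01 against -0.37 for all probe sets. The basement membrane collagen gene Col4a2 rose by 0.68 ± 0.12 and Ebf1, a transcription factor that fat cells also use, by 1.45 ± 0.38 (SE), but on the housekeeping scale Col4a2 stood at -0.40. Col4a1 and the amine oxidase gene Aoc3 were higher by 0.51 and 2.37 without passing (limma adjusted p = 0.05004 and 0.0503). Higd1b, a capillary pericyte marker, read 7.27 ± 0.09 on WT and 6.98 ± 0.13 (SD) on KO arrays (limma adjusted p = 0.106). After centring on the array median its difference was 0.04. On the housekeeping scale 18 of the 24 genes were called lower and 1 higher, where most of all probe sets were called lower too.

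Few genes that set vessel tone were called as deposited. Of 28 measured receptors, channels and cyclic GMP genes 2 were called higher and 2 lower, with a median difference of -0.20, beside 5.32% and 15.6% of all probe sets. After centring on the array median 3 were called higher and 0 lower (median 0.13), and on the housekeeping scale 1 higher and 25 lower (median -1.28). Rgs2, like Rgs5 a regulator of G protein signalling that opposes vasoconstrictors, rose by 3.90 ± 0.89, and the natriuretic peptide receptor gene Npr1 by 0.88 ± 0.20 (SE; -0.20 on the housekeeping scale). Kcnma1 and Kcnmb1, the pore and the smooth muscle subunit of the calcium-activated BK potassium channel, were called lower at -0.65 ± 0.16 and -0.43 ± 0.12 (SE). Both calls were lost after centring on the array median, at -0.32 and -0.10.

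**Figure D4:**
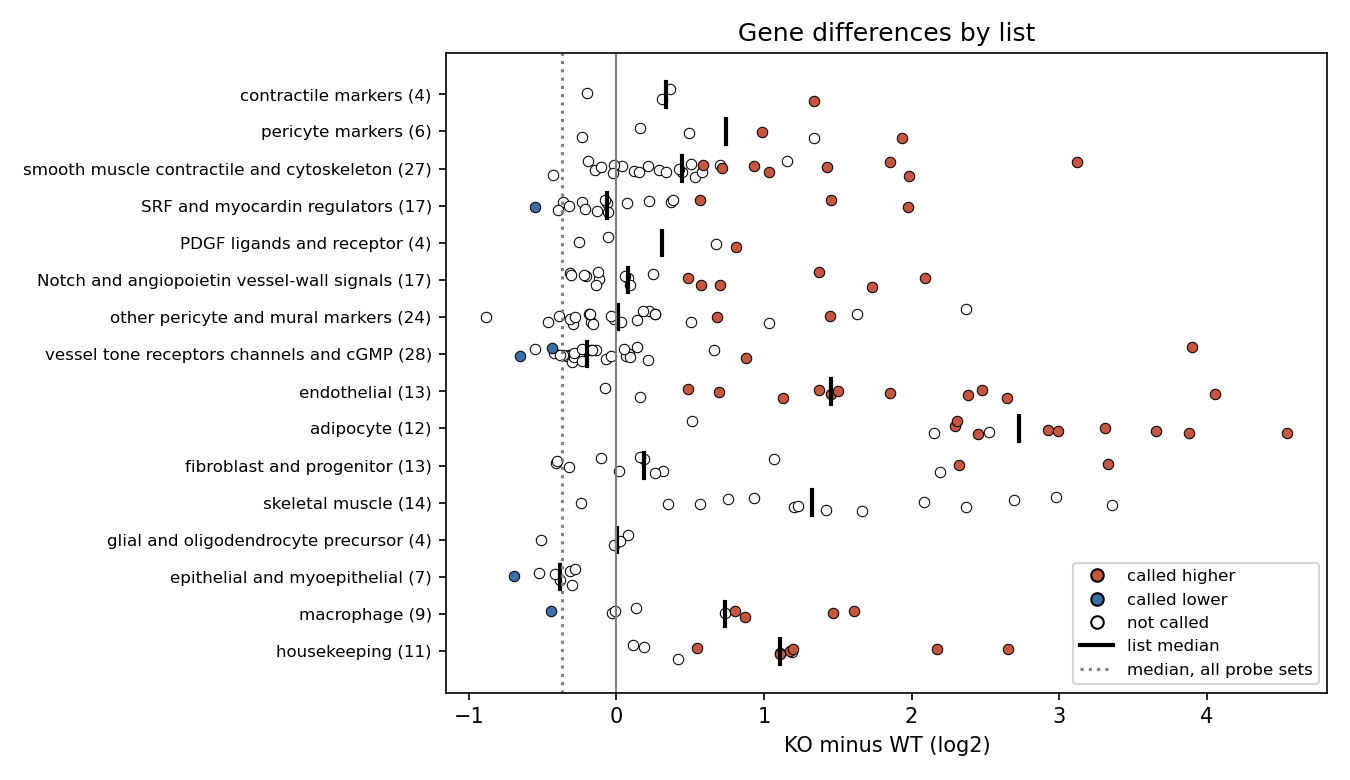
KO minus WT difference (log2, horizontal axis, as deposited) of every measured gene in each list (rows, number of genes in parentheses), filled red where called higher and blue where called lower; black bars are list medians and the dotted line is the median of all probe sets, -0.37. The wider pericyte list centres at 0.01 and the endothelial list at 1.45; on the housekeeping scale they stand at -1.07 and 0.37.

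Markers of neighbouring cell types were read beside the 10 genes, and their part in the differences was not tested. As background, 10.7% of protein-coding genes were called higher and 10.2% lower, and of all probe sets 5.32% and 15.6%. Of 13 endothelial genes 11 were called higher and 0 lower (median difference 1.45), with list means of 7.09 to 7.31 on WT and 8.51 to 9.16 on KO arrays; on the housekeeping scale 4 were called higher and 2 lower. Cdh5, the endothelial cadherin gene, rose by 4.06 ± 0.28 (SE), and relative to it the changes of Rgs5 and Mcam were -2.12 ± 0.24 and -2.72 ± 0.32 (SE from the spread over arrays), a comparison chosen after the values had been seen. Of 12 adipocyte genes 9 were called higher (median difference 2.73; list means of 8.61 to 10.09 on WT and 11.72 to 13.06 on KO arrays). Of 13 fibroblast and progenitor genes 2 were called higher (median difference 0.19; list means of 7.93 to 8.07 and 8.46 to 8.90), where the median turned to -0.89 on the housekeeping scale, and of 9 macrophage genes 4 higher and 1 lower (median difference 0.73, or -0.35 on the housekeeping scale; list means of 7.38 to 7.50 and 7.91 to 8.12).

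Markers of other cells that can carry these genes were not called higher. As background, 5.32% of all probe sets were called higher as deposited and 15.6% lower. Of 7 epithelial and myoepithelial genes, a cell type that also makes smooth muscle actin, 0 were called higher and Krt14 was called lower at -0.69 ± 0.17 (SE) as deposited, a call lost after centring on the array median (-0.36), with list means of 6.45 to 6.71 on WT and 5.95 to 6.24 on KO arrays. Of 4 glial genes 0 were called (list means of 6.68 to 7.04 and 6.76 to 6.85). On the housekeeping scale all 7 epithelial and all 4 glial genes were called lower, as were 59145 of the 65956 probe sets. Of 11 housekeeping genes 6 were called higher and 0 lower, with a median difference of 1.11, above the differences of 7 of the 10 markers. Olfactory receptor genes moved the opposite way, with a median difference of -0.82 over 1088 genes, of which 32.7% were called lower and 0 higher.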

How the data were processed

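RNA of 6 mice was measured on whole-transcript arrays, labelled with biotin by a GeneChip WT Pico kit per the labels. The authors deposited 1 log2 signal for each probe set and array. Transcriptome Analysis Console is named, with no version, in the submitters' processing notes. How signals were corrected for background, normalized and summarized remains not given in the sources used here. Values ran from 2.81 to 19.93. Of 65956 probe sets, GEO's array annotation with symbols updated through RefSeq (GRCm38.p6) gave 31258 exactly 1 symbol, 1492 several and 33206 none, the last unnamed here. Of several probe sets for a gene, the brightest on average was used.

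KO was compared with WT by limma 3.58.1 in R 4.3.3 (lmFit and eBayes, genotype as the only term) over all probe sets, with Benjamini-Hochberg adjustment and a threshold of 0.05. SEs are limma's unless stated. The procedure was tested on simulated arrays. The members and the 14 other gene lists (198 of 226 genes measured) were chosen with earlier results of these data known. Named were all members, up to 4 genes per list with the smallest p, defining markers, Tfg, and the 3 genes most like each called member; other names were chosen after their values were seen. Alternatives covered quantile normalization, centring on the array median or the housekeeping mean, a filter on dim probe sets, eBayes with trend and robust, the replicate number as a block, each array left out, probe sets with 1 symbol, and averaging of the probe sets of a gene. The number of arrays limits the precision. Python 3.11.15, pandas 2.3.3 and matplotlib 3.10.9 made the tables and plots.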

Additional observations from a re-analysis of the deposited data

How the results depend on the processing

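Of the values of the 10 genes under alternatives, 110 kept their direction and side of the threshold. In the same direction 21 lost a call and 7 gained one, and 10 others changed sign, whether called or not; the cause was not tested. Over all probe sets limma called 13791 as deposited (25.4% of them higher), 6244 after quantile normalization (64.6% higher), 8405 after centring on the array median (61.2% higher) and 60012 after centring on the housekeeping mean (1.44% higher). The median difference of the 10 genes was then 0.67, 0.76 and -0.65, and 0.74 without the dimmer probe sets, which drop Kcnj8 and Cspg4. Cnn1 stood at 0.028 and Kcnj8 at 0.13 after quantile normalization, and at 0.13 and 0.10 after median centring. On the housekeeping scale 6 members were called, and Tagln stood at -0.77, Myh11 at -0.72, Pdgfrb at -0.59, Abcc9 at -0.089 and Cspg4 at -0.92. With the replicate number as a block, 1 member, Rgs5, was called, beside 11227 of all probe sets. Same-numbered arrays deviated together at correlations of 0.0015, 0.205 and 0.139, so the numbers were not taken as pairs. Leaving out 1 array at a time gave 0 to 14166 called probe sets and 0 to 3 called members. With KO 3 alone against the WT arrays, added after seeing the data, 0 probe sets and 0 members were called by limma, and Cnn1 stood at 0.07. All members had 1 probe set, so averaging probe sets left their differences as they were. Signal over background was not available.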

Other observations

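Regulators of G protein signalling differed among themselves, in a comparison chosen after the values had been seen. Rgs2 read 7.71, 8.70 and 7.59 in the WT mice, against 10.92, 13.98 and 10.81 in the KO mice, and it rose together with Rgs5 by limma's test (adjusted p = 0.04 for Rgs2). Rgs4, another regulator found in mural cells, was 0.26 ± 0.12 (SE) higher without passing (limma adjusted p = 0.137). Its KO arrays all lay above its WT arrays, as in 11.1% of all probe sets. On the housekeeping scale Rgs4 stood at -0.82 and Rgs2 at 2.82. Rgs16 differed by -0.55 ± 0.16 (SE; limma adjusted p = 0.055). Every KO array of Rgs16 lay below every WT array, as in 44.9% of all probe sets. After centring on the array median Rgs16 stood at -0.22.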
